A study of Mus musculus with 4 samples.

Results

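The apolipoprotein L genes (Apol) are a family that mice carry mostly as a tandem array on chromosome 15. The 9 genes described here, Apol6, Apol7c, Apol8, Apol9a, Apol9b, Apol10a, Apol10b, Apol11a and Apol11b, were taken by symbol from count tables that list 24015 genes. They were chosen by their counts in the same caNIK-against-control comparison, so their difference between the groups is given as a description, with no p-value. How many of them a fit across all genes called is stated beside the share of all genes called. How that count changes under other fits is also given, and neither supports anything. The tables hold 5 further family symbols, Apol7a, Apol7b, Apol7d, Apol7e and Apold1, which are given for completeness.

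The samples were hematopoietic stem and progenitor cells (HSPC) of mice, purified by cell sorting, in 4 RNA-seq libraries. Control HSPC gave 2 libraries and caNIK HSPC gave 2. The caNIK mice carry both a Rosa-loxp-STOP-loxp-NIK allele and Vav-iCre, a Cre transgene active in the blood system, so a form of the kinase NIK that TRAF3 cannot target was made in every blood lineage rather than in stem cells alone. The labels give the controls no alleles, and no sort markers, ages, sexes or numbers of animals. Nothing in them says that the libraries of a group came from separate mice, so the spread between them may be technical.

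Most apolipoprotein L proteins are intracellular and are not carriers of plasma lipid, in spite of the name, which comes from human APOL1, a pore-forming serum protein that kills trypanosomes. They are built of amphipathic helices that can insert into membranes, and several are induced by interferon. In mice, Apol9a and Apol9b encode interferon-induced antiviral proteins, Apol7c is known from dendritic cells, where its protein damages the membrane of phagosomes, and human APOL6 has been linked to cell death through a BH3-like region. The roles of Apol8, Apol10a, Apol10b, Apol11a and Apol11b in blood cells are less well described.

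Totals lay between 18574452 and 23162766 counts per library. Map3k14, which encodes NIK, lay at 30.2 and 25.1 CPM (reads relative to the TMM-scaled size of the library) in the control libraries and 177 and 192 in the caNIK libraries. The progenitor marker Kit was at 612 ± 1.81 CPM in control and 532 ± 36.7 in caNIK (SD, n = 2), Cd34 was at 718 ± 107 and 113 ± 41.5, and Ly6a, which encodes Sca-1, was at 12.4 ± 6.09 and 73.1 ± 37.6. All 14 stem and progenitor markers had reads, 2 passing as higher in caNIK and 5 as lower, with summed levels of 3061 to 3348 CPM in control and 1585 to 1897 CPM in caNIK.

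The promoters are shown first, because most of the listed genes share a short element near their annotated start that the choice of genes did not use. RefSeq promoter windows (GRCm38.p6, 250 bases before to 50 bases after a gene's start) were at hand for 8 of the 9 genes, all but Apol6. The stretches below run 5′ to 3′ on the gene's own strand. Capitals mark matches to the core of the interferon-stimulated response element (ISRE), the element bound by interferon regulatory factors, spelled GAAA, any 2 bases, GAAA and searched on both strands. Every match here lies on the opposite strand and so reads TTTC, any 2 bases, TTTC.
Apol11b (chr15:77643307-77643366, minus strand): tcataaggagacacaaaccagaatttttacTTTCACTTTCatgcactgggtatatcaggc
Apol11a (chr15:77508189-77508248, plus strand): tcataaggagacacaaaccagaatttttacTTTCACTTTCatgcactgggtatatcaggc
Apol10a (chr15:77476967-77477026, plus strand): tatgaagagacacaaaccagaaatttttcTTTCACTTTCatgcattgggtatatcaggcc
Apol7c (chr15:77533336-77533395, minus strand): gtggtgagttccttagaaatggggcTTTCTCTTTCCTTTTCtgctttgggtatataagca
Apol9b (chr15:77729028-77729057, plus strand): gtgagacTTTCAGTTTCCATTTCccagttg
Apol9a (chr15:77411117-77411146, minus strand): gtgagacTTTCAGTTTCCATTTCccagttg
Apol8 (chr15:77757031-77757090, minus strand): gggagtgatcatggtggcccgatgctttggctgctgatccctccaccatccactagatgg

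The ISRE core was found in 7 of the 8 windows, against 3.99% of the 27025 genes with a window (3.44% of 32851 windows). It began 50 bases before the start in Apol11a and Apol11b and 51 bases before it in Apol10a. In Apol7c, Apol9a and Apol9b there were 2 overlapping matches each, which gives the unbroken run of capitals. RefSeq lists 2 starts each for Apol9a and Apol9b, and the stretches printed for this pair overlap a GENCODE exon, so whether they lie before the start depends on the annotation. The match in Apol10b straddles the start and is lost when only the 250 bases before it are searched, which leaves 6 of 8 genes against 3.46% of all genes. The window of Apol8 held no match, and its stretch is printed for contrast. That says only that these letters are not in this window.

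The windows are not independent of each other. The 250 bases before the start were identical between Apol11a and Apol11b, at 250 of 250 positions, and 228 of 228 aligned bases were identical between Apol9a and Apol9b. Apol10a matched Apol11b at 216 of 250 positions (86.4%). The gamma-activated site (TTC, any 3 bases, GAA), the element of interferon-gamma signalling, was found in Apol10a, Apol11a and Apol11b, each time 241 bases before the start, against 9.55% of all genes. A kB-type motif (GGGA, any 2 bases, TTCC; both strands) was found in 0 of the 8 windows and in 1.63% of all genes, and the wider kB consensus in 0 of 8 and 9.55% of all genes. Among interferon response genes listed for this work, 22 of 43 with a window held the ISRE core (51.2%), and among non-canonical NF-kB genes 1 of 17 did (5.88%). A match is a description of sequence and not a measured binding site.

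**Figure D1:**
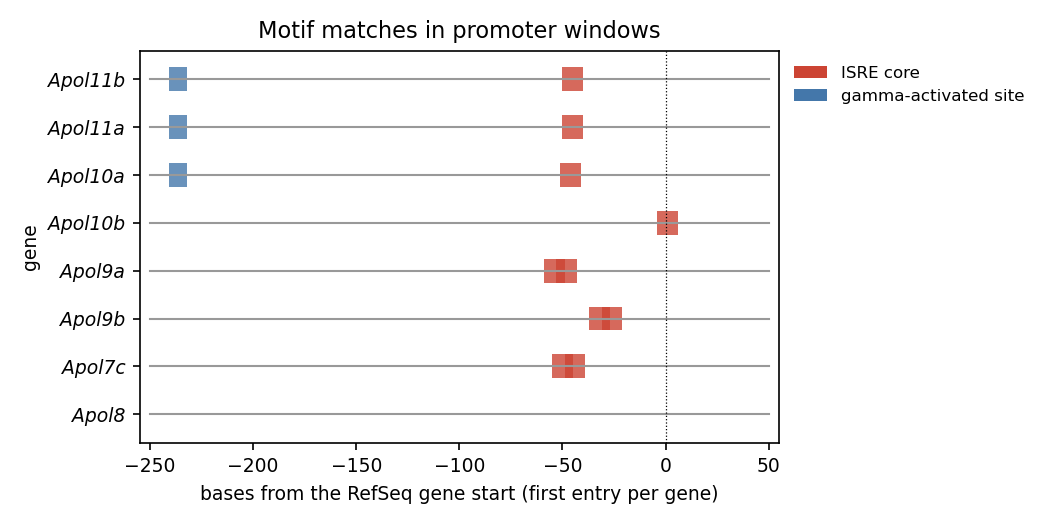
Motif matches in the RefSeq promoter windows of 8 Apol genes; the horizontal axis is the distance in bases from the gene's start (first RefSeq entry per gene), each line is a window, and blocks are matches to the ISRE core or the gamma-activated site. The ISRE core lies within 60 bases of the start in 7 genes, and Apol8 has no match to either motif.

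All 9 genes had reads in both caNIK libraries, and 4 of them had none in either control library. Both caNIK libraries lay above both control libraries for all 9. Of all genes with a read in any library 31.0% did so, of tested genes 33.3%, and 31.6% of tested genes lay below, and since the genes were named with this contrast in view, nothing is read from their count. In bulk RNA, fewer cells of a type and less RNA per cell cannot be told apart. Summed over the 9 genes, control libraries held 69 and 51 reads and caNIK libraries 1104 and 1373. In CPM these sums were 3.58 and 2.17 in control and 59.3 and 66.2 in caNIK. Most of the caNIK signal was from 1 gene, Apol11b, which supplied 66.8% of the 9 genes' reads in replicate 1 (exact 95% interval 63.9 to 69.5) and 68.6% in replicate 2 (66.1 to 71.1). Without it the sums in caNIK were 19.7 and 20.8 CPM. These intervals, and all counting intervals below, cover counting error only, and the floors below cover it in control only.

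**Figure D2:**
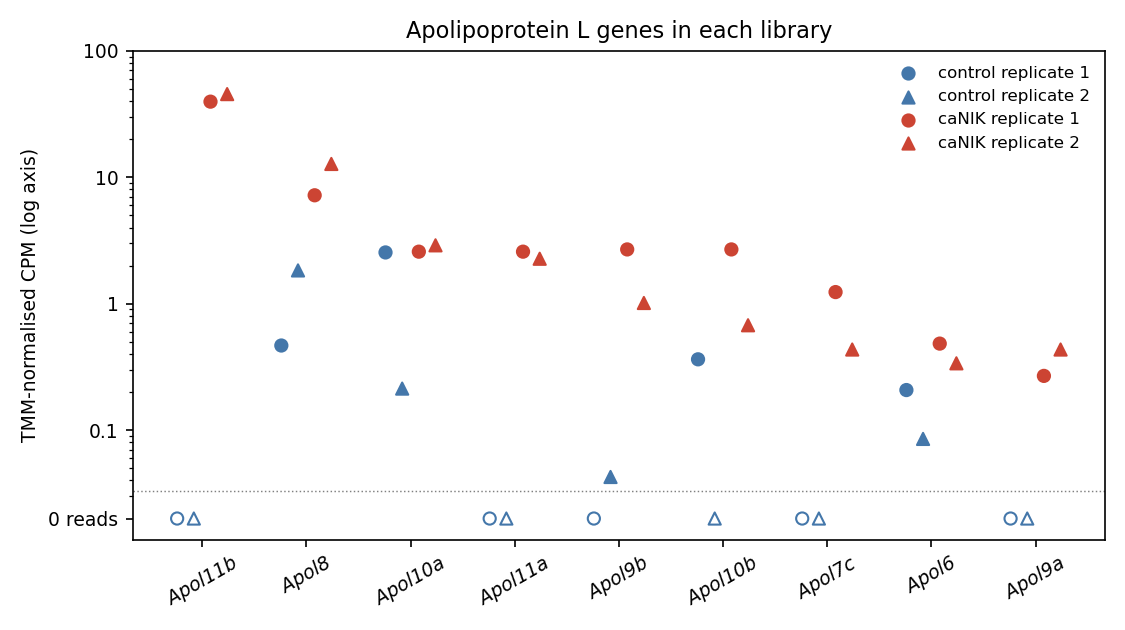
TMM-normalised CPM (log axis) of the 9 Apol genes in each of 4 libraries, genes ordered by their caNIK mean; filled points are libraries with reads and open points libraries with 0 reads. Apol11b stands at 39.6 and 45.4 CPM in caNIK with 0 reads in control, while control replicate 1 and caNIK replicate 1 nearly coincide for Apol10a.

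Apol11b was counted 0 times in both control libraries and 737 and 942 times in caNIK replicates 1 and 2. Its caNIK level was 42.5 ± 4.13 CPM (SD, n = 2), at least 608-fold higher than control, taking 3 counts over the control group as the floor (0.0702 CPM). Among the 553 genes without a control read and with reads in both caNIK libraries, Apol11b ranked 6 by caNIK level. The bound fell to 334 and 274 when control replicate 1 or 2 was left out, because the floor then rests on 1 library.

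Apol11a, whose promoter stretch printed above is the same as that of Apol11b, had 0 control reads and 48 and 47 caNIK reads. It stood at 2.58 and 2.27 CPM in caNIK, 34.4-fold above the control floor (18.9 and 15.5 without control replicate 1 or 2). The counting interval of its ratio to control started at 27.4. The 2 caNIK libraries agreed within counting error for Apol11a (replicate 1 over replicate 2, 1.14, interval 0.745 to 1.74). Per kilobase of transcript, Apol11b reached 18.8 ± 1.83 CPM and Apol11a 1.30 ± 0.118 CPM. This pair thus had identical bases before the start and unequal read counts.

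Apol10a, their closest relative by promoter, was the gene whose groups came nearest to overlapping. It had 49 and 5 reads in control and 48 and 60 in caNIK. Levels were 2.54 and 0.213 CPM in control replicates 1 and 2 and 2.58 and 2.89 CPM in the caNIK libraries. Control replicate 1 was thus level with caNIK, and control replicate 2 was low. The log2 fold change was 1.0 ± 0.99 (SE), and it was 3.63 without control replicate 1 and 0.11 without control replicate 2. Apol10b had 7 and 0 control reads and 50 and 14 caNIK reads, or 0.363 and 0 CPM against 2.69 and 0.675 CPM. Its log2 fold change was 3.24 ± 1.35. It was 2.19 without control replicate 2. Leaving out caNIK replicate 1 or 2 gave 1.92 and 3.88, and with control replicate 1 left out the gene had no control read.

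Apol9a and Apol9b, the antiviral pair, were all but silent in control. Apol9b had 0 and 1 control reads and 50 and 21 caNIK reads, which are 2.69 and 1.01 CPM. The ratio of caNIK to control was 77.1, with a counting interval of 13.4 to 3088. Apol9a had no control read and 5 and 9 caNIK reads, 5.07-fold over the floor, and the counting interval of its ratio started at 3.60. Apol9b was above Apol9a in both caNIK libraries, at 2.69 against 0.269 CPM in replicate 1 and 1.01 against 0.434 CPM in replicate 2. Apol9a and Apol9b are nearly the same sequence, and their counts are uncertain for the reason given below.

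Apol7c, the phagosome gene of dendritic cells, had 0 control reads and 23 and 9 caNIK reads. Its caNIK levels were 1.24 and 0.434 CPM, 11.6-fold over the control floor (6.36 and 5.22 without control replicate 1 or 2, and 6.18 without caNIK replicate 1). The counting interval of the ratio for Apol7c started at 8.89. Apol6 had few reads in every library, with 4 and 2 control reads and 9 and 7 caNIK reads. The ratio for Apol6 was 2.90, with a counting interval of 1.08 to 9.04.

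Apol8 came next after Apol11b by caNIK level and had most of the 9 genes' reads in control replicate 2. It was counted 9 and 43 times in control and 134 and 264 times in caNIK. Levels were 0.467 and 1.83 CPM in control and 7.20 and 12.7 CPM in caNIK, so replicate 2 was the higher library in both groups. The log2 fold change was 3.09 ± 0.69 (SE). Leaving out control replicate 1 or 2 gave 2.42 and 4.40, and leaving out caNIK replicate 1 or 2 gave 3.45 and 2.61. Replicate 2 exceeded replicate 1 by 3.92-fold in control (counting interval 1.89 to 9.16) and 1.77-fold in caNIK (1.43 to 2.19). The summed level of 10 erythroid markers was also higher in replicate 2, at 358 and 834 CPM in control and 1449 and 2378 CPM in caNIK. Of these markers 8 had reads, all 8 higher in replicate 2 of both groups, and the adult globin genes Hba-a1 and Hbb-b1 were listed at 0 throughout. Macrophage and monocyte sums were also higher in replicate 2, at 76.1 and 144 CPM in control and 326 and 509 CPM in caNIK. Granulocyte sums were too, at 1185 and 2893 CPM in control and 299 and 412 CPM in caNIK. The higher replicate 2 was thus not particular to erythroid markers. Sums of stem and progenitor, dendritic, mature B, T and NK and epithelial markers were higher in replicate 1 of both groups. The part of any of these cells in the level of Apol8 was not tested.

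**Figure D3:**
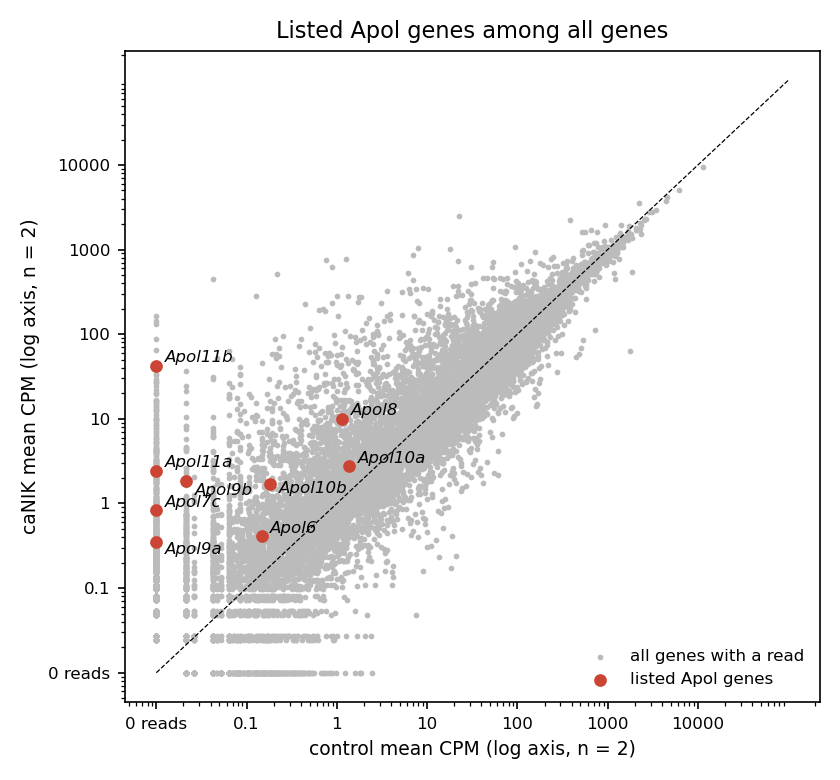
Mean CPM in control (horizontal, log axis) against mean CPM in caNIK (vertical, log axis), n = 2 libraries each, for all genes with a read (grey) and the 9 Apol genes (red); genes without reads in a group are drawn at the axis end, and the dashed line marks equal levels. All 9 Apol genes lie above the line, 4 of them at 0 control reads.

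In the fit across all genes, 6 of the 9 genes passed the filter on low counts (Apol6, Apol7c and Apol9a did not). At an adjusted p under 0.05 in edgeR's quasi-likelihood test, 22.0% of the 14191 tested genes were called, 13.8% as higher and 8.21% as lower. The fit put 4 of the 6 past that threshold as higher, Apol8, Apol9b, Apol11a and Apol11b, and Apol10a and Apol10b not. This count describes genes named from the same contrast and supports nothing further. The count was 7 without control replicate 1, with Apol7c, Apol10a and Apol10b added. Apol9b dropped out without caNIK replicate 1, and Apol8 without caNIK replicate 2.

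The order of the caNIK levels per kilobase of transcript was Apol11b (18.8 ± 1.83 CPM), Apol8 (3.56 ± 1.40), Apol11a (1.30 ± 0.118), Apol9b (1.18 ± 0.752), Apol10a (0.902 ± 0.0734), Apol10b (0.723 ± 0.611), Apol7c (0.405 ± 0.275), Apol9a (0.230 ± 0.0764) and Apol6 (0.202 ± 0.0507). Only the steps from Apol11b to Apol8 and from Apol8 to Apol11a separated both libraries. From Apol11a downwards each gene overlapped the next in the order. In control the first 2 places went to Apol10a (0.454 ± 0.543 CPM per kilobase) and Apol8 (0.410 ± 0.345), which overlapped.

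The 2 control libraries differed in which of the listed genes led. Apol10a made up 71.0% of the 69 reads of the 9 listed genes in control replicate 1 (exact interval 58.8 to 81.3) and 9.80% of the 51 reads in control replicate 2 (3.26 to 21.4). Apol8 made up 13.0% in replicate 1 (6.14 to 23.3) and 84.3% in replicate 2 (71.4 to 93.0). The intervals do not overlap for either gene. Apol10b (7 and 0 reads) and the unlisted Apol7a (10 and 0 reads) also had control reads in replicate 1 only. Summed granulocyte markers (9 of 10 with reads) also differed between these libraries, at 1185 and 2893 CPM, and their part was not tested. Differences of 2-fold or more between the control libraries were common at such levels, in 32.9% of 2987 genes with a control mean of 0.5 to 5 CPM.

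Between the caNIK libraries, replicate 1 was higher than replicate 2 for Apol10b (3.98-fold, counting interval 2.17 to 7.79), Apol7c (2.85-fold, 1.27 to 6.99) and Apol9b (2.65-fold, 1.56 to 4.65). Apol10b and Apol8 thus differed in the same direction as between the control libraries. Apol8 was higher in replicate 2, as was Apol11b, with replicate 2 over replicate 1 at 1.15 (1.04 to 1.27). Of 3248 genes with a caNIK mean of 0.5 to 5 CPM, 32.9% also differed by 2-fold or more. Of the 12 dendritic cell markers, all of which had reads, 9 were higher in caNIK replicate 1 and 2 in replicate 2, and between the control libraries 6 were higher in each. Xcr1, the chemokine receptor of cross-presenting dendritic cells, lay at 0.674 and 1.24 CPM in control and 8.75 and 3.33 CPM in caNIK. The markers higher in caNIK replicate 2 were Zbtb46 (28.9 and 32.8 CPM) and Fscn1 (598 and 634 CPM), and Cd209a had no caNIK read. Of 11 tested, 5 were higher in caNIK and 1 lower. The summed level was 560 to 683 CPM in control and 774 to 822 CPM in caNIK, but 2 genes held most of it. Fscn1, the actin-bundling protein of mature dendritic cells, was at 51.7 and 51.9 CPM in control, and without it the sums were 631 and 508 CPM in control and 223 and 140 CPM in caNIK. Flt3, also a progenitor marker, was at 593 and 472 CPM in control and 113 and 58.3 CPM in caNIK, and without both genes the sums were 37.9 and 35.4 CPM in control and 110 and 81.6 CPM in caNIK. Summed macrophage and monocyte markers (11 of 12 with reads) were at 76.1 and 144 CPM in control and 326 and 509 CPM in caNIK. Only Vcam1 of the 11 passed as higher and none as lower, and without Vcam1 the sums were 69.0 and 123 CPM against 142 and 171 CPM. Summed T and NK cell markers (9 of 10 with reads) were higher in replicate 1, at 142 and 86.0 CPM in control and 218 and 79.4 CPM in caNIK. Replicate 1 of caNIK was also the higher for 13 of 14 stem and progenitor, 9 of 9 mature B, 7 of 9 endothelial and 6 of 8 epithelial markers. Replicate 2 of caNIK was the higher for 8 of 9 granulocyte, 8 of 10 erythroid and 7 of 11 macrophage and monocyte markers. The higher replicate 1 was thus not particular to dendritic, T or NK cell markers. The part of any of these cells in the levels of Apol7c, Apol9b and Apol10b was not tested.

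How far reads can be assigned to single members depends on how alike the members are. Coding sequences of GENCODE M21 (1 per gene, the longest) were 98.5% identical between Apol9a and Apol9b and 94.7% between Apol11a and Apol11b. Apol10a, Apol10b, Apol11a and Apol11b formed a group at 75.4% or more, and Apol6 was the most distant member, at 42.8% to 49.3% to every other. Apol8 was nearest to Apol9a (61.9%) and Apol7c nearest to Apol8 (60.2%).

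**Figure D4:**
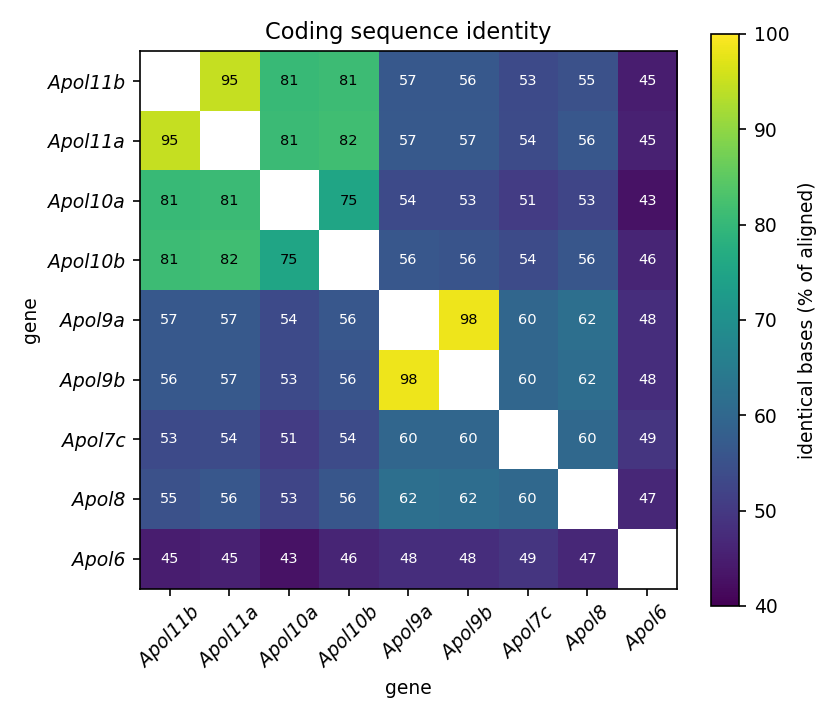
Percent of identical bases between the coding sequences of the 9 Apol genes after global alignment; both axes are genes, and the colour scale runs from 40 to 100%. The pairs Apol9a with Apol9b and Apol11a with Apol11b stand out at 98.5% and 94.7%, and Apol6 is the most distant.

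The labels state neither the read length nor what was done with reads of more than 1 match, so exact matches of stretches of 50 and 100 bases were counted between transcripts. Of the 50-base stretches of the Apol9a transcript 57.5% also occur in another gene, all in Apol9b, and for Apol9b the share was 51.4% (41.1% and 34.9% at 100 bases). Discarded or split reads would therefore touch this pair most. The share at 50 bases was 26.2% for Apol7c, of which the largest part matched the predicted gene Gm8221, 18.0% for Apol11a, 16.9% for Apol10a, 16.5% for Apol11b, 6.11% for Apol10b and 3.98% for Apol6. At 100 bases it was 6.43% for Apol7c, 4.12% or less for Apol11b, Apol11a and Apol10a, and 0 for Apol6 and Apol10b. Apol8 shared no stretch of either length. Apol11a shared 15.3% of its 50-base stretches with Apol11b, and Apol11b shared 12.3% of its own with Apol11a.

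The 5 family symbols outside the list had few reads. Apol7b and Apol7e had 0 reads in all 4 libraries, although the promoter of Apol7e also held the ISRE core. Apol7e was the only one of the 5 for which a match to this core was found. Apol7a had 10 and 0 control reads and 0 and 3 caNIK reads. Apol7d, annotated by RefSeq as a long non-coding RNA on chromosome 1, had 0 and 0 against 1 and 4. Apold1, a more distant relative known from endothelium, had 35 and 26 control reads and 63 and 99 caNIK reads. It was the only one of the 5 that could be tested, and its log2 fold change of 1.48 ± 0.54 did not pass (edgeR adjusted p = 0.10).

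Interferon response genes were mostly higher in caNIK. Whether the ISRE core bears on the levels of the Apol genes was not tested. Of 53 tested genes, 46 passed as higher and 1 as lower, with a median log2 fold change of 1.68 against 0.00 (0.0038) over all tested genes. Gbp5 and Gbp2, interferon-inducible GTPases, rose by 3.40 ± 0.21 and 3.28 ± 0.22 and the antiviral gene Oasl2 by 2.53 ± 0.18 on the log2 scale (edgeR adjusted p = 0.00022, 3e-04 and 0.00034). The member that fell was Ifnar2, an interferon receptor chain, by 0.62 ± 0.16 (edgeR adjusted p = 0.033), a call kept only without caNIK replicate 1 among the fits with 1 library left out. In 37 of the 53 genes caNIK replicate 1 was above replicate 2. It was above for 5 of the 9 Apol genes, but not for Apol11b or Apol8. In the lists described below, it was above for 7 of 21 tested non-canonical NF-kB genes and 11 of 20 lipoprotein genes. The same held for 8 of 19 membrane-damage genes and 8 of 18 cluster neighbours. Nothing is read from the count of Apol genes.

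Of 21 tested genes of the non-canonical NF-kB pathway, which NIK drives, 15 were higher and 1 lower (median 1.48). Nfkb2, Relb and Birc3 rose by 5.05 ± 0.22, 4.53 ± 0.21 and 2.97 ± 0.16 (edgeR adjusted p = 8.2e-05, 9.5e-05 and 0.00018). The lymphotoxin receptor gene Ltbr fell by 1.55 ± 0.20. These genes and the interferon genes were known to be higher in these libraries when the Apol genes were named.

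A further list held the apolipoproteins of plasma lipoproteins, which share the name, with their receptors and transfer proteins. Of 20 tested, 1 was higher and 3 lower, close to the 22.0% called among all tested genes (median -0.61). The lipoprotein receptor genes Vldlr, Scarb1 and Lrp1 fell by 4.85 ± 0.45, 1.14 ± 0.19 and 1.09 ± 0.19 (edgeR adjusted p = 0.00085, 0.008 and 0.0099). Pltp, a phospholipid transfer protein, rose by 3.11 ± 0.64 (edgeR adjusted p = 0.017), a call lost without caNIK replicate 1 or 2 (edgeR adjusted p = 0.053 and 0.10).

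Of 19 tested genes of other membrane-damaging, autophagy and damage-sensing proteins, 6 were higher and 2 lower, a called share of 42.1% against 22.0% of all tested genes (median 0.25). Gsdmd, the pore-forming gasdermin of pyroptosis, rose by 1.20 ± 0.16, and Lgals8, a galectin that detects damaged vesicles, by 1.30 ± 0.16 (edgeR adjusted p = 0.0032 and 0.0025). Mpeg1, perforin-2, rose by 1.53 ± 0.24 (edgeR adjusted p = 0.006). Bok, of the Bcl-2 family, fell by 5.03 ± 0.62 (edgeR adjusted p = 0.0025), and Mlkl, the effector of necroptosis, by 0.83 ± 0.18 (edgeR adjusted p = 0.021). The call of Mlkl was lost without control replicate 1 or 2 (edgeR adjusted p = 0.11 and 0.058).

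**Figure D5:**
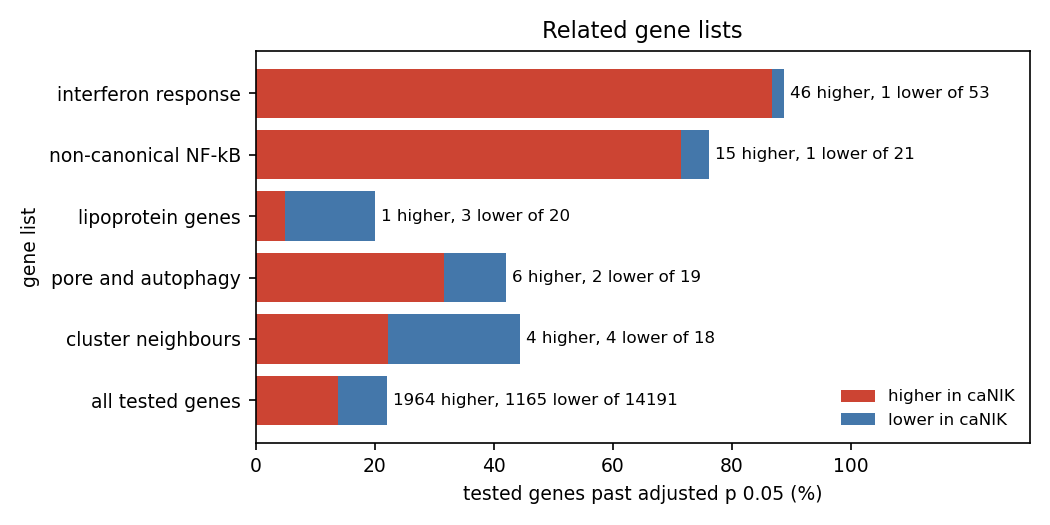
Share of tested genes past an edgeR adjusted p of 0.05 (horizontal axis, %) in each gene list (vertical axis), split into higher and lower in caNIK, with all tested genes in the last bar. Interferon response genes reach 46 higher of 53 and lipoprotein genes 1 higher and 3 lower of 20, beside 22.0% called over all tested genes.

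The protein-coding genes around the array were split in direction. In RefSeq order, 21 genes were taken, 10 on each side and Rbfox2, which lies between Apol6 and Apol7a. Of 18 tested, 4 were higher and 4 lower, a called share of 44.4% with a median log2 fold change of -0.06. Among all tested genes 13.8% were higher and 8.21% lower. Rbfox2, a splicing factor, rose by 1.07 ± 0.24. Myh9, the first gene after Apol8, had a log2 fold change of 0.31 ± 0.15 (edgeR adjusted p = 0.20). Beyond it, Txn2, a mitochondrial thioredoxin, and Foxred2 fell by 0.63 ± 0.17 and 1.82 ± 0.21. At the far end, Ncf4, of the phagocyte oxidase, and Csf2rb2 and Csf2rb, receptor chains for interleukin-3 and related cytokines, rose by 1.23 ± 0.15, 3.35 ± 0.16 and 1.17 ± 0.15. Csf2rb2 and Csf2rb are near-identical copies, so reads may be shared between them. On the Apol6 side Arhgap39 and Zfp647 fell by 1.19 ± 0.30 and 1.69 ± 0.45, and the muscle gene Mb had no read. Foxred2, Ncf4, Csf2rb2 and Csf2rb kept their calls whichever library was left out. Zfp647 kept its call in none of these fits. Arhgap39 kept its call only without control replicate 1, Txn2 only without caNIK replicate 2 and Rbfox2 only without caNIK replicate 1.

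The genes most like the 2 highest members over the 4 libraries were found by the root mean square difference of centred log2 CPM, among 10428 genes. Nearest to Apol11b were Btn1a1, a butyrophilin (0.07), Hecw1 (0.20) and Slc6a12 (0.27). Hecw1 also had 0 reads in both control libraries, with 532 and 766 in caNIK, and Btn1a1 had 9 and 10 against 3731 and 5199. Among the nearest to Apol8 were Cacna1e (0.14) and Tspan33 (0.17). Tspan33, a tetraspanin of erythroid cells, lay at 9.23 and 43.2 CPM in control and 141 and 278 CPM in caNIK. These genes were picked for their likeness over the same 4 libraries. A pattern shared with Apol11b or Apol8 therefore comes from the choice and supports nothing further. With 4 libraries many genes come this close, 16 within 0.5 of Apol11b and 58 within 0.5 of Apol8.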

How the data were processed

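For each library the authors deposited whole-number counts by gene symbol, per the file headers, without normalization. Per the submitters' processing notes, mm9, TopHat2 2.1.0, featureCounts 1.5.0, FastQC and DESeq2 1.10.1 were used, with no role or order stated. The sources used here give no annotation or strand setting.

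The test was edgeR 4.0.16 in R 4.3.3 (filterByExpr by group, TMM factors, glmQLFit and two-sided glmQLFTest, group as the only term, Benjamini-Hochberg adjusted p under 0.05 over 14191 genes). Standard errors come from the F statistic. Levels are CPM on TMM-scaled library sizes. The steps were tested on simulated data.

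The members and lists were chosen with earlier results of these data known. Named are the 9 genes, other family symbols, the 3 smallest p of each list, all called neighbours and the genes of nearest pattern, of which 1 is not reported here. Others named were chosen after their values were seen. Promoters are RefSeq's, on GRCm38.p6, and transcripts GENCODE's M21. Both differ in build from mm9, so they were joined by symbol only. Protein identity was planned but protein sequences were not used here, and coding bases were aligned instead (Biopython 1.88). Alternatives were DESeq2 1.42.0, limma-voom (limma 3.58.1), other scalings and filters, a replicate block, glmTreat, and each library left out.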

Additional observations from a re-analysis of the deposited data

How the results depend on the processing

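The number of listed Apol genes past the threshold as higher was 3 to 5 under the other tests, scalings and filters and 3 to 7 with 1 library left out, and none was lower in any of these fits. The direction of the fitted log2 fold changes of Apol8, Apol10a and Apol10b was kept in every fit that tested them (Apol10b was not tested with at least 1 CPM required in 2 libraries). Replicate numbers 1 and 2 occur in both groups, but the labels do not say that they mark a shared animal or day. Deviations of same-numbered libraries correlated at 0.21 across tested genes, and with the replicate number as a block 2494 genes were higher and 1766 lower, against 1964 and 1165. Under this block Apol10b also passed, and 2 non-canonical NF-kB genes and 6 lipoprotein genes were lower (5 lipoprotein genes with DESeq2). Against a fold change of 1.5 (glmTreat), 1357 genes were higher and 458 lower. With 1 library left out, the lower genes numbered 858 to 1387 over all genes, 0 to 2 among interferon response genes, 3 to 5 among lipoprotein genes (0 to 2 higher), 1 to 3 among membrane-damage genes and 1 to 3 among cluster neighbours, whose 4 lower genes were thus never all called. Where a group keeps 1 library, it is assumed to vary like the other. The bound for Apol11b ran from 274 to 647, that for Apol11a from 15.5 to 36.7, that for Apol7c from 5.22 to 17.6 and that for Apol9a from 2.29 to 6.18. Depth limits Apol6, Apol7a, Apol7d and Apol9a, which have at most 10 reads in any library.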

Other observations

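The predicted gene Gm8221, which shares 16.3% of the 50-base stretches of the Apol7c transcript, was counted 0 and 3 times in control and 25 and 25 times in caNIK. Its log2 fold change was 4.10 ± 1.11 (edgeR adjusted p = 0.041). Unlike Apol7c, at 1.24 and 0.434 CPM, it was level between the caNIK libraries, at 1.34 and 1.21 CPM. Cacng2, a neighbour of the array that encodes a brain calcium channel subunit, had 0 reads in both control libraries and 7 and 10 in caNIK.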
